A study of Mus musculus with 59 samples.

Results

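RNA loss during the first 4 h of transcription block was measured in wild type (control) mouse embryonic stem cells by comparing 2 libraries taken after 4 h in Actinomycin D with 2 libraries taken at 0 h. These are 4 of the 59 samples of the series, chosen by their labels alone, and every gene of the table was considered. All groups were blastocyst-derived cells of the BDF1 strain, and all were cultured in serum medium containing LIF together with CHIR99021, an inhibitor of GSK3, and PD0325901, an inhibitor of MEK. Actinomycin D was used at 5 µg/ml, ribosomal RNA was removed from total RNA with a RiboErase kit, and spike-in RNA was added according to the labels. Zcchc8 KO cells of the same strain at 0 and 4 h and control cells at 8 h, with 2 libraries each, are used below where a change is compared between genotypes or intervals. Whether the 2 replicates of a group came from separate cultures is not stated, so p-values measure the spread between libraries, which may be technical.

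Actinomycin D intercalates into DNA and stops elongation by RNA polymerases. With synthesis blocked, the level of an RNA falls at the pace of its decay, and RNAs with short lives drop first. Short-lived messages in mammalian cells include immediate early genes, feedback inhibitors of signalling and many transcription factors, while messages for ribosomal proteins and metabolic enzymes last long. Replication-dependent histone messages are a class of their own: they carry no poly(A) tail, end in a stem-loop bound by SLBP, and are degraded quickly when DNA synthesis stops.

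Depth was low, at 465324 to 1027826 counted reads per library, and 1 read was worth 1.32 and 3.23 normalised units at 0 h against 0.728 and 0.772 units at 4 h. The 0 h replicates stood apart from each other, with replicate 2 higher by a median of 0.81 on the log2 scale, against 0.37 at 4 h. Each result is therefore given on the authors' scale and, where it matters, after TMM scaling (trimmed mean of M values, which assumes that most genes do not change), which raised the median change by 0.56. A call after TMM is a change relative to the bulk of genes, so a gene called higher there need not have increased. Neither scale separates fewer cells from less RNA per cell. Of 27 pluripotency genes, 20 to 22 had reads in each library, and Nanog and Esrrb were at 0 in all 4. Gapdh had 0 to 2 reads per library. Of genes with 1 transcript in the table, 34.3% had a mean of at least 10, against 8.47% of genes with several, and a 0 is therefore not read as absence of an RNA. Fibroblast markers, which would mark feeder cells, were also present, at a higher summed value than the pluripotency genes in all 4 libraries. Their summed value was 7077 and 11638 at 0 h and 10171 and 12283 at 4 h. That of the pluripotency genes was 4457 and 7404 at 0 h and 2544 and 3485 at 4 h. Col1a1 was the highest fibroblast marker, and Pdgfrb, Postn and Sparc were at 0 in all 4 libraries. The part of the fibroblast markers in the results was not tested.

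The strand of the counted reads is not given, and some rows may hold RNA of the opposite gene. Snx22, whose exons overlap Ppib on the other strand, had 2806 and 7497 units at 0 h, while Ppib had 128 and 197. A coding exon on the opposite strand was annotated for 9.62% of tested genes and for 9.18% of those called lower. Among coding genes with 1 transcript in the table, 64.8% of the 673 with such an exon had a mean of at least 10, against 37.9% of the 15222 without. Without these genes, 742 of 6283 genes (11.81%) were called lower. Where a gene named below has a coding exon opposite it, this is stated.

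Over 4 h, far more RNAs were called lower than higher on the authors' scale. Of 6952 genes, 817 (11.8%) were lower and 34 (0.489%) higher at an adjusted p below 0.05 (limma). The median change was −0.49 log2 units, with quartiles of −1.16 and −0.02. After TMM scaling, 471 genes (6.78%) were lower and 362 (5.21%) higher, and the median change was 0.07. The share of higher calls among all calls was 4.00% on the authors' scale and 43.5% after TMM. All 471 genes lower after TMM were also lower on the authors' scale, whereas 346 others were lower on the authors' scale only. Both 4 h values lay below both 0 h values for 39.3% of genes. The general decline differed between the 0 h replicates: the median change was −0.14 against replicate 1 alone and −0.95 against replicate 2 alone. Without control 0 h replicate 2, 234 genes were called lower, without control 0 h replicate 1, 2067, without control 4 h replicate 1, 244, and without control 4 h replicate 2, 496.

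The fast losers were few. Among the 1954 genes with a 0 h mean of at least 100, a median of 69.4% of the 0 h level was left at 4 h (quartiles 46.4% and 89.6%). The genes were picked by the 0 h mean, which is also the base of the percentage. The shares left may therefore be understated. Under 50% was left for 554 genes, under 25% for 188 and under 10% for 67. Of those 67 genes, 36 were replication-dependent histone genes.

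**Figure D1:**
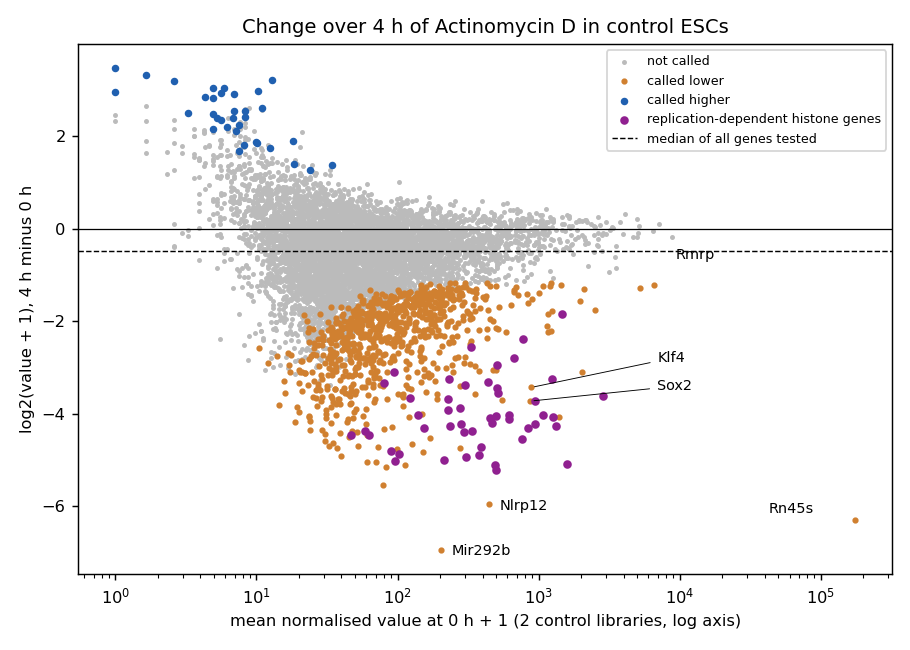
Change in log2(value + 1) from 0 h to 4 h in control cells against the mean 0 h value plus 1 on a log axis, 1 point per tested gene (6952). Orange points were called lower, blue points higher, purple points are replication-dependent histone genes, and the dashed line is the median of −0.49; the histone genes, Rn45s, Nlrp12 and Mir292b lie far below the bulk, and blue points are confined to low levels.

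Rn45s, the precursor of 18S, 5.8S and 28S ribosomal RNA made by RNA polymerase I, was the most abundant RNA and showed one of the deepest falls. Its level was 131959 and 219412 units at 0 h and 1967 and 2369 units at 4 h, so the groups did not overlap and 1.23% was left. The log2 change was −6.30 (SE 0.39, adjusted p = 3.89e-16) and −5.73 after TMM. It took 16.0% and 14.6% of the total signal at 0 h and 0.314% and 0.298% at 4 h. These are values of what remained after ribosomal RNA removal. Of 4 tested noncoding RNAs listed together, Rn45s was the 1 called lower. Rmrp, the RNA of RNase MRP, had 6241 and 11486 units at 0 h and 6484 and 8675 at 4 h (log2 change −0.18, adjusted p = 0.836). Rpph1, the RNA of RNase P, kept 87.7% and the telomerase RNA Terc 93.7% of their 0 h means, and neither was called.

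Replication-dependent histone genes fell together. Of 63 such genes in the table, 49 were tested and all 49 were lower, against 11.8% of all genes, with a median change of −4.10 and a median of 5.64% left. After TMM, 48 of 49 were lower, Hist1h3b being the exception (adjusted p = 0.0653). Leaving out any 1 library left 43 to 49 lower on the authors' scale and 39 to 48 after TMM. These genes are near-identical copies, so reads may have been split between them.

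The falls covered the linker histone H1 and all 4 core histones. Hist1h1d, a linker histone, went from 1262 and 1925 units to 28.4 and 71.1 (log2 change −5.08, SE 0.43, adjusted p = 1.18e-11). Hist1h1c, the linker histone with the highest 0 h level of the list, went from 2037 and 3682 units to 215 and 229, leaving 7.75%. Hist2h4, a histone H4 gene, went from 336 and 652 units to 10.2 and 13.1 (log2 change −5.22, SE 0.56, adjusted p = 4.16e-09). In all 3 both 4 h values lay far below both 0 h values. Hist1h3g, a histone H3 gene, went from 353 and 620 units to 10.2 and 15.4, leaving 2.63%. Hist1h2bj, a histone H2B gene, went from 344 and 433 units to 16.0 and 11.6, leaving 3.55%. Hist1h2ae, a histone H2A gene, had 86.9 and 116 units at 0 h and 2 and 5 reads at 4 h. The smallest falls of the list were in the H4 genes Hist1h4a (27.0% left), Hist1h4d (18.6%) and Hist1h4c (16.7%).

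The stem-loop that sets these messages apart could be read in the annotated transcripts (GENCODE M21). The letters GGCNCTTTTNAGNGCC were searched on the transcribed strand over the whole annotated transcript, coding or not. They are held by 32 of the 6877 tested genes with a transcript (0.465%), of which 30 are in the histone list. In each of the 32 they lie after the stop codon. Of the 19 list members without the letters, 13 have an annotated 3′ end under 30 bases long. The windows below show the stem-loop in capitals for the members that fell most and hold it, and for H2afx, which encodes the variant H2A.X and is in neither histone list.
Hist2h4: ccctaacGGCCCTTTTTAGGGCCaaccaca
Hist4h4: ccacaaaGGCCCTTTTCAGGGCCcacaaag
Hist1h1d: ctcaaacGGCTCTTTTCAGAGCCacccaca
Hist1h2bg: acccaaaGGCTCTTTTCAGAGCCacccata
Hist1h2ae: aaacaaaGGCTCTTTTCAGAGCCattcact
Hist1h2bj: atccaaaGGCTCTTTTCAGAGCCacgcaca
H2afx: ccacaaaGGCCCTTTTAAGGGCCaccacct
The stem-loop began 39 bases after the stop codon in Hist2h4, 32 in Hist1h1d and 47 in H2afx.

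Other histone messages did not behave alike. Both genes outside the list that hold the letters, named after their values were seen, were lower: H2afx went from 885 and 1605 units to 308 and 388 (27.9% left, log2 change −1.78, SE 0.37, adjusted p = 0.000932), and Hist3h2ba, an H2B gene, from 8 and 6 reads to 1 and 0 reads (adjusted p = 0.0358, and 0.0564 after TMM). In the list of replacement histone genes, which are expressed outside S phase and which here leaves out H2afx, 0 of 7 tested were called on either scale. H3f3b, which encodes H3.3, had 383 and 585 units at 0 h and 276 and 382 at 4 h (68.1% left, adjusted p = 0.387), with the highest 4 h value just under the lowest 0 h value. H3f3a, the other H3.3 gene, had 175 and 323 units at 0 h and 194 and 327 at 4 h, with overlapping groups.

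**Figure D2:**
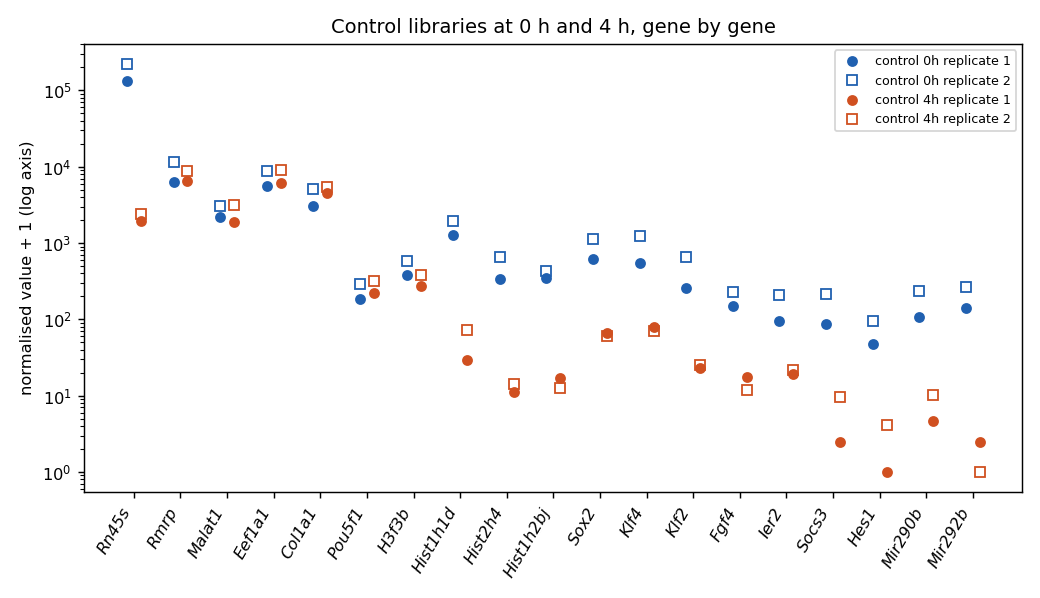
Normalised value plus 1 on a log axis in each of the 4 control libraries for 19 genes, with 0 h in blue and 4 h in orange (circles replicate 1, squares replicate 2). Rmrp, Malat1, Eef1a1, Col1a1 and Pou5f1 overlap between the time points, while each of the genes from Hist1h1d to Mir292b lies lower at 4 h in both libraries.

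Reads on rows of the miR-290 locus on chromosome 7, the main microRNA cluster of embryonic stem cells, nearly vanished. They are reads of total RNA libraries and may come from longer transcripts of the locus. The level of the mature microRNAs was not measured. Mir292b had 141 and 262 units at 0 h and 1.46 and 0 units at 4 h, that is 2 and 0 reads. The pooled reads gave 0.426% left, with a 95% exact interval of 0.0512% to 1.56% that covers counting error only, and the fitted log2 change of −6.95 depends on the added 1. Mir290b went from 107 and 233 units to 3.64 and 9.27 (3.80% left, log2 change −4.52, SE 0.65, adjusted p = 2.76e-06). Nlrp12, an inflammasome gene whose annotated exons overlap Mir291a to Mir295, went from 261 and 630 units to 4.37 and 6.95 (1.27% left, log2 change −5.96, adjusted p = 4.87e-09). Mir290b and Mir292b are annotated on the minus strand, opposite the better known hairpins Mir290a and Mir292, whose rows were at 0 reads in all 4 libraries. RNA of the 2 strands cannot be told apart here. The mature arms of both hairpins (RefSeq, GRCm38.p6) are shown with the seed, bases 2 to 8, in capitals, and the 4 arms have 4 different seeds.
mmu-miR-290b-5p: gCUUAAAAcuaggcggcacuuu
mmu-miR-290b-3p: aAGUGCCCccauaguuugagua
mmu-miR-292b-5p: aCUCAAAAccuggcggcacuuuu
mmu-miR-292b-3p: aAGAGCCCccaguuugaguau
Of 16 single microRNA rows tested, 6 were called lower, the other 4 being Mir142b, Mir1896, Mir1905 and Mir6340, named after their values were seen. On the authors' scale, 11.8% of all genes and 21.4% of noncoding rows were called lower.

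Pluripotency genes split into short-lived and lasting messages. Of 19 tested, 10 (52.6%, against 11.8% of all genes) were lower and 0 higher, with a median change of −1.53 and 34.1% left. After TMM 8 were lower and 2 higher (Dppa5a and Trim28), where 6.78% of all genes were lower and 5.21% higher. Leaving out 1 library left 5 to 10 lower on the authors' scale, with 5 without control 0 h replicate 2 and 6 without control 4 h replicate 1. After TMM it left 4 to 9 lower, with 5 without control 0 h replicate 2 and 4 without control 4 h replicate 2, and 0 higher without either of these or without control 4 h replicate 1.

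Sox2, a core transcription factor of the pluripotent state, had 611 and 1134 units at 0 h and 65.5 and 58.7 at 4 h (7.12% left, log2 change −3.73, SE 0.42, adjusted p = 9.45e-09). Klf4, a Krüppel-like factor downstream of LIF, had 539 and 1221 units at 0 h and 79.3 and 69.5 at 4 h (8.46% left, adjusted p = 4.77e-08). Klf2, a related factor that acts with it, had 253 and 656 units at 0 h and 21.8 and 23.9 at 4 h (5.04% left, adjusted p = 1.06e-08). In all 3 the groups were far apart and the 4 h replicates close to each other. Fgf4, a growth factor that Sox2 and Oct4 activate, went from 148 and 229 units to 16.7 and 10.8 (7.31% left, adjusted p = 9.78e-08). Gbx2 (17.2% left), Klf5 (19.7%), Zfp42 (24.0%), Dppa3 (24.2%) and Sall4 (34.1%) were among the others lower, Dppa3 and Sall4 on the authors' scale only.

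Pou5f1, which encodes Oct4, had 186 and 294 units at 0 h and 223 and 314 at 4 h, with overlapping groups (112% left, log2 change 0.18, SE 0.39, adjusted p = 0.833). Tdgf1, a Nodal co-receptor, kept 97.6%, Lin28a, a blocker of let-7 processing, 90.7%, and Tfcp2l1, a LIF target, 83.2%. None of these 4 was called on either scale. Trim28, a corepressor of retroelements, had 753 and 1131 units at 0 h and 800 and 1137 at 4 h (adjusted p = 0.958, and 0.0454 after TMM, higher), a TMM call lost in 12 of 17 alternatives.

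Most of the tested immediate early genes, which respond to signals without new protein, were called lower on the authors' scale. Of 18 tested, 13 (72.2%, against 11.8% of all genes) were lower and 0 higher, with a median change of −2.65 and 15.1% left, and 8 were lower after TMM (3 to 11 when 1 library was left out). Leaving out 1 library left 4 to 15 lower, with 4 without control 4 h replicate 1, 6 without control 0 h replicate 2 and 9 without control 4 h replicate 2. Ier2, a nuclear regulator and the most abundant of them at 0 h, went from 93.5 and 210 units to 18.2 and 20.9 (12.9% left, log2 change −2.79, SE 0.51, adjusted p = 0.000147). Junb, an AP-1 subunit, went from 54.0 and 64.6 units to 8.73 and 6.18 (12.6% left, adjusted p = 0.00071). Egr1, a zinc finger factor, had 20 and 6 reads at 0 h and 1 and 0 reads at 4 h. Zfp36l2, which binds AU-rich elements and recruits the deadenylase, went from 90.9 and 171 units to 18.9 and 26.3 (17.2% left, adjusted p = 0.000407), while its relative Zfp36l1 kept 52.2% and was not called.

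Single feedback inhibitors and targets of signalling pathways were called lower. Their lists are small, with 28.6% of LIF and STAT3 genes, 33.3% of Wnt targets and 14.3% of ERK feedback genes called, against 11.8% of all genes. Socs3, the feedback inhibitor of LIF signalling through STAT3, had 85.6 and 213 units at 0 h and 1.46 and 8.50 at 4 h (3.33% left, log2 change −4.82, SE 0.70, adjusted p = 3.2e-06). Of 7 LIF and STAT3 genes, Socs3 and the kinase Pim3 (15.2% left) were lower, the Pim3 call being lost without control 4 h replicate 1, while the receptor subunits Lifr (61.1% left) and Il6st (66.4%) were not called. Spry2, a feedback inhibitor of ERK signalling, went from 107 and 132 units to 11.6 and 18.5 (12.6% left, adjusted p = 0.000691) and was the 1 called of 7 ERK feedback genes, although the list's median change was −2.20. Dusp4 and Spry4 of that list had 16 and 12 reads over both 0 h libraries.

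Axin2, a feedback inhibitor of Wnt signalling, went from 107 and 165 units to 13.8 and 15.4 (10.8% left, adjusted p = 0.00273), and Sp5, a Wnt-induced repressor, from 54.0 and 45.2 to 5.82 and 6.95 (adjusted p = 0.014). They were 2 of 6 Wnt targets tested; Cdx1 kept 96.0% and Ccnd1, whose exons overlap a gene on the other strand, 86.7%. The Axin2 call was lost without control 4 h replicate 1, and the Sp5 call without it, without control 4 h replicate 2 and without control 0 h replicate 2. Smad7, the inhibitory Smad of BMP and Nodal signalling, went from 299 and 562 units to 70.6 and 88.8 (18.5% left, adjusted p = 0.000169). The ligand Nodal went from 92.2 and 38.8 units to 2.18 and 10.0 (9.33% left, adjusted p = 0.000714, lost without control 4 h replicate 1). Its inhibitor Lefty1, with 51.4 and 87.2 units at 0 h and 12.4 and 13.9 at 4 h, was called lower, though not without control 0 h replicate 2, control 4 h replicate 1 or control 4 h replicate 2, whereas Lefty2, with 101 and 281 units at 0 h and 104 and 148 at 4 h, was not (65.8% left, adjusted p = 0.555). Hes1, the Notch effector with oscillating expression, had 35 and 29 reads at 0 h and 0 and 4 reads at 4 h (adjusted p = 5.3e-06).

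The 3′ UTRs of a few of these messages hold the AU-rich nonamer TTATTTATT, shown in capitals within 30 bases of the annotated transcript for Zfp36l2, Fosl2 and Plk2, which the naming rule picks from the immediate early and p53 lists and which hold it.
Zfp36l2: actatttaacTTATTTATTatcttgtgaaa
Fosl2: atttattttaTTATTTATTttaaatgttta
Plk2: aataaactttTTATTTATTacagccccaag
Fosl2, an AP-1 subunit, went from 30.3 and 51.7 units to 2.91 and 6.18 (11.1% left, adjusted p = 0.00594), a call lost without control 0 h replicate 2 or control 4 h replicate 1. Plk2, a kinase induced by p53, went from 81.7 and 54.9 units to 6.55 and 6.95 (9.89% left, adjusted p = 0.0029). The nonamer stands in the 3′ UTR of 6.99% of all tested coding genes outside the histone list, of 9.36% of those called lower and of 10.7% of those lower after TMM. Of the 452 genes with it, 63 (13.9%) were called lower, against 10.5% of all 6529.

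Other regulators were called lower in part of their lists. Of 93 numbered zinc finger genes, mostly transcription factors, 34 (36.6%, against 11.8% of all genes) were lower and 0 higher, with a median change of −1.45. After TMM 22 were lower, and 7, 8, 4 and 6 without control 0 h replicates 1 and 2 and control 4 h replicates 1 and 2 in turn. Leaving out 1 library moved the count on the authors' scale between 5 and 55: it was 5 without control 4 h replicate 1, 9 without control 0 h replicate 2, 20 without control 4 h replicate 2 and 55 without control 0 h replicate 1. Zfp553 went from 137 and 216 units to 15.3 and 31.7 (13.3% left, adjusted p = 2.3e-05), and Zfp532 from 125 and 320 to 44.4 and 51.0 (21.4% left, adjusted p = 0.00165, lost without control 0 h replicate 2). Zfp488, the highest of the list at 0 h, went from 608 and 1408 to 344 and 360 (34.9% left, adjusted p = 0.0174, and 0.0698 after TMM).

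Of 14 p53 targets, 4 (28.6%, against 11.8% of all genes) were lower on the authors' scale and 2 after TMM. Bbc3, which encodes the cell death factor Puma, went from 23 and 27 reads to 1 and 8 reads (5.88% left, adjusted p = 0.000339). Plk2, Gadd45a and Sesn2 were the others on the authors' scale. The calls of Gadd45a and Sesn2 were lost after TMM (adjusted p = 0.0715 and 0.0919) and without control 0 h replicate 2 or control 4 h replicate 1, and that of Sesn2 also without control 4 h replicate 2. Bax, a cell death effector, had 124% of its 0 h mean (adjusted p = 0.669, and 0.0295 after TMM, higher). The licensing factor Cdt1 went from 136 and 168 units to 11.6 and 20.9 (10.7% left, log2 change −3.19, SE 0.48, adjusted p = 6.09e-06) and was the 1 lower of 10 genes of the MCM and replication list; Mcm2, a subunit of the replicative helicase, kept 90.8%.

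Lists of RNA processing genes are small, and the shares called lower for exosome and adaptor genes (13.3%) and deadenylation and decapping genes (14.3%) were near the 11.8% of all genes. Of 6 Integrator genes, whose complex cleaves nascent RNA, Ints8 (19.1% left), Ints5 (19.1%) and Ints6 were lower on both scales. The Ints8 call was lost without control 0 h replicate 2, and the Ints5 and Ints6 calls without control 4 h replicate 1. Exons of Ints8 overlap Ccne2 and those of Ints6 overlap Serpine3 on the other strand. Of 15 exosome and adaptor genes, Exosc6 went from 35.6 and 80.8 units to 11.6 and 3.09, a call lost without control 0 h replicate 2 or control 4 h replicate 2, and Exosc9 from 726 and 1408 to 444 and 417 (40.3% left, adjusted p = 0.0307, and 0.1 after TMM). Tob1 and Tob2, which bring the CCR4-NOT deadenylase to messages, were the 2 lower of 14 deadenylation and decapping genes, with 14.1% and 15.7% left. Both calls were lost without control 4 h replicate 1, and that of Tob2 also after TMM. None of 16 splicing factor genes was called on either scale. Pcgf2, Eed and Cbx2 were the 3 lower of 10 Polycomb genes, Eed and Cbx2 on the authors' scale only. The Pcgf2 call was lost without control 0 h replicate 2 or control 4 h replicate 1, and without the latter 0 of 10 were lower by limma. Zcchc8 itself had 59.3 and 77.5 units at 0 h and 32.7 and 24.7 at 4 h (42.0% left, adjusted p = 0.26). Skiv2l2, the helicase of the same complex, whose exons overlap Plpp1 on the other strand, had 216 and 388 at 0 h and 122 and 137 at 4 h (adjusted p = 0.0591). Rbm7 was at 0 reads in all 4 libraries.

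**Figure D3:**
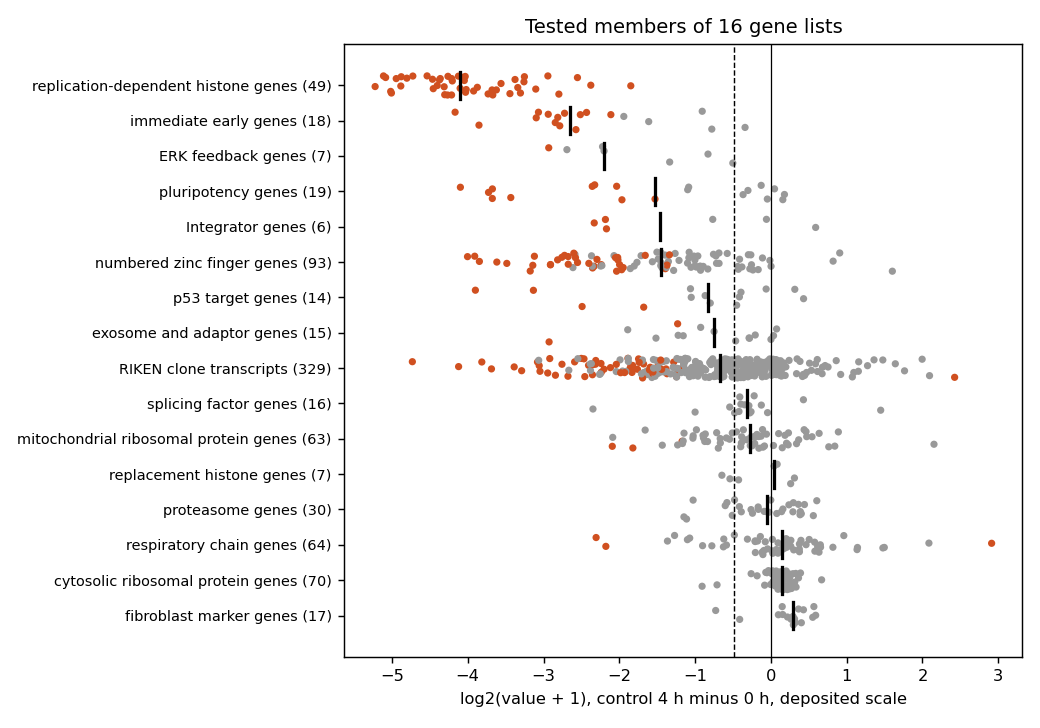
Change in log2(value + 1) from 0 h to 4 h for each tested member of 16 gene lists (number tested in brackets), on the authors' scale, with called genes in orange, the list median as a black bar and the median of all genes as a dashed line. All 49 replication-dependent histone genes are called and lie left of the dashed line, while most of the 70 ribosomal protein genes lie between it and 1.

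Messages of several housekeeping machines, though not all, stayed near or above their 0 h level by the median of their list. None of 70 cytosolic ribosomal protein genes was called on the authors' scale, with a median change of 0.15 and 109% left. After TMM, 57 of 70 were higher and 0 lower, with a median of 0.72. That count depended on the libraries: it was 6 without control 0 h replicate 2, 9 without control 4 h replicate 1 and 0 without control 4 h replicate 2. Rpl27a, the highest of them at 0 h, had 1969 and 3986 units at 0 h and 2637 and 3673 at 4 h (adjusted p = 0.85, and 0.00405 after TMM), with the 4 h values inside the range of the 0 h values.

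Of 64 respiratory chain genes, 2 were lower (Cox7a1 and Ndufa4l2) and 1 higher (Ndufc1), and after TMM 15 were higher and 0 lower, 4 without control 0 h replicate 2, 3 without control 4 h replicate 1 and 1 without control 4 h replicate 2. The Cox7a1 and Ndufa4l2 calls were lost after TMM (limma adjusted p = 0.0627 and 0.121). The calls of Cox7a1, Ndufa4l2 and Ndufc1 were lost in 6, 7 and 8 of 22 alternatives in that order. Cox5b, a subunit of cytochrome c oxidase, had 81.7 and 126 units at 0 h and 162 and 158 at 4 h, with no overlap (adjusted p = 0.306, and 0.00656 after TMM, lost without control 0 h replicate 2 or control 4 h replicate 1). Sdha, of succinate dehydrogenase, had 105 and 90.4 units at 0 h and 122 and 194 at 4 h (adjusted p = 0.301, and 0.0157 after TMM, lost without either of these or without control 4 h replicate 2). Proteasome genes (30 tested), chaperonin genes (11), glycolysis genes (6) and aminoacyl-tRNA synthetase genes (13) had 0 called on the authors' scale by limma and 4, 3, 4 and 3 higher after TMM. Without control 0 h replicate 2, control 4 h replicate 1 or control 4 h replicate 2, the TMM count was 0 for proteasome, chaperonin and synthetase genes and 1, 1 and 0 for glycolysis genes. Of 63 mitochondrial ribosomal protein genes, 3 were lower, led by Mrps25, which went from 689 and 1612 units to 239 and 253 (21.4% left, adjusted p = 0.000295), although exons of Mrps25 and Nr2c2 overlap. The median of that list was 77.4% left. Translation factor genes (39 tested, 1 called lower) had a median of 76.7% left.

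The most abundant messages showed the same range. Eef1a1, the elongation factor that brings tRNA to the ribosome, had 5604 and 8676 units at 0 h and 6122 and 9079 at 4 h (adjusted p = 0.903, and 0.00642 after TMM, higher, lost without control 0 h replicate 2 or control 4 h replicate 2). Hsp90ab1, a chaperone, kept 95.8%, and Ptma, which encodes a small acidic nuclear protein, 93.4%. Both were called higher after TMM, calls lost in 7 of 17 alternatives for Hsp90ab1 and 10 of 17 for Ptma, among them leaving out control 0 h replicate 2, control 4 h replicate 1 or control 4 h replicate 2. Gm17644 went from 3515 and 9694 units to 2365 and 2680 (38.2% left, adjusted p = 0.0394, and 0.136 after TMM), a call lost in 12 of 22 alternatives.

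Fibroblast markers were not called on the authors' scale in any of 17 tested, with a median change of 0.30, and 12 were higher after TMM, between 3 and 13 when 1 library was left out (5 without control 0 h replicate 2, 3 without control 4 h replicate 1 and 4 without control 4 h replicate 2). Col1a1, a fibrillar collagen chain, had 3065 and 5123 units at 0 h and 4580 and 5357 at 4 h (121% left, adjusted p = 0.633, and 0.00286 after TMM, lost without control 0 h replicate 2 or control 4 h replicate 1). Acta2, smooth muscle actin, had 313 and 475 units at 0 h and 494 and 684 at 4 h, with no overlap (adjusted p = 0.318, and 0.000479 after TMM). Prss23, a secreted protease, showed the largest rise relative to the bulk of genes after TMM at a level of at least 100. It had 88.2 and 113 units at 0 h and 177 and 233 at 4 h (adjusted p = 0.0641, and 0.000206 after TMM).

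The 34 rises on the authors' scale were all at low levels. None had a 4 h mean of 100 or more, the highest 4 h mean being 82.1, and 16 of 34 had 0 reads in control 0 h replicate 2, where 3 reads are worth 9.69 units. The 3 with the smallest p were Qsox1, Camk2n2 and Antxr1. Qsox1, a thiol oxidase, had 0 reads in both 0 h libraries and 10 and 18 reads at 4 h. Camk2n2, an inhibitor of CaMKII, had 0 and 1 reads at 0 h and 27 and 21 at 4 h. Antxr1, an anthrax toxin receptor, had 7 and 0 reads at 0 h and 35 and 28 at 4 h. All 3 calls were lost when the 4 libraries were fitted alone.

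Of 374 tested noncoding rows, 21.4% were called lower on the authors' scale, and of 6578 coding genes 11.2%, a difference that was not tested. The median changes were −0.70 and −0.48, and −0.13 and 0.08 after TMM. Malat1, an abundant nuclear RNA, had 2191 and 3059 units at 0 h and 1887 and 3128 at 4 h (95.5% left, adjusted p = 0.913). Kcnq1ot1, which silences an imprinted domain, went from 124 and 181 units to 45.1 and 75.7 (39.6% left, adjusted p = 0.0229, and 0.0743 after TMM) and overlaps Kcnq1. It was the 1 called of 7 nuclear long noncoding RNAs. None of 8 snoRNA and scaRNA genes was called (limma), with a median change of −0.94; Snord49a had 15 reads at 0 h and 4 at 4 h (adjusted p = 0.0581). RIKEN clone transcripts were picked by symbol and not by coding status. A coding exon on the opposite strand was annotated for 113 of the 329 tested, against 9.62% of all tested genes. Of these 329 transcripts, 58 (17.6%, against 11.8% of all genes) were lower and 1 higher, and 28 were lower after TMM. The count on the authors' scale was 143 without control 0 h replicate 1, 12 without control 0 h replicate 2, 15 without control 4 h replicate 1 and 29 without control 4 h replicate 2, and after TMM it ranged from 7 to 44. Among them G530011O06Rik, which overlaps Mid1, went from 161 and 394 units to 3.64 and 18.5 (4.00% left, adjusted p = 6.52e-06). 0610040F04Rik, opposite the transcription factor gene Bhlhe40, went from 224 and 772 to 47.3 and 51.0, and Bhlhe40 from 73.8 and 58.1 to 8.00 and 8.50.

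Transcript features of coding genes outside the histone list are described here without a test. Over 6508 genes, Spearman's rho of the TMM change was −0.08 with 3′ UTR length, −0.13 with coding length, 0.08 with exon number and −0.0036 with GC content, all near 0. Single-exon genes were called lower in 39 of 143 cases (27.3%), multi-exon genes in 647 of 6365 (10.2%), and the median changes after TMM were −0.58 and 0.10. The median 3′ UTR was 1096 bases in genes called lower, 1004 in all tested and 581.5 in genes higher after TMM. The Pumilio site TGTANATA, bound by repressors that promote decay, stands in the 3′ UTR of 32.1% of genes called lower, 24.7% of all tested and 14.5% of those higher after TMM. Per kilobase of 3′ UTR it occurred 0.314, 0.241 and 0.174 times. The heptamer TATTTAT, part of the nonamer above, occurred 0.353, 0.285 and 0.215 times per kilobase in the same groups.

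The early losses of control cells were set beside those of Zcchc8 KO cells, from separate libraries of the same fit. In KO, 998 genes (14.4%) were lower at 4 h and 2 higher, with a median change of −0.68. Of the 817 genes lower in control, 521 (63.8%) were lower in KO, which is 52.2% of the KO list. Sox2 kept 10.5%, Klf4 11.4%, Fgf4 9.17% and Pou5f1 90.7% in KO, and 47 of 49 replication-dependent histone genes were lower. The change itself differed between genotypes for 1 of 6952 genes (0.0144%). Before adjustment, 221 had a limma p below 0.05, a threshold that a share of about 0.05 of unchanged genes also passes. The 1 gene called was Hist1h4i, a histone H4 gene. It had 213 and 255 units at 0 h and 10.2 and 12.4 at 4 h in control, leaving 4.81%, and 495 and 518 units at 0 h and 217 and 290 at 4 h in KO, leaving 50.0%. The changes differed by 3.25 on the log2 scale (SE 0.56, adjusted p = 0.00542). No gene was called without control 4 h replicate 1, KO 0 h replicate 1, KO 0 h replicate 2 or KO 4 h replicate 2, whereas 30 were called without control 0 h replicate 1 and 9 without control 0 h replicate 2.

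The loss over the first 4 h was compared with the loss from 4 to 8 h in control, where the 4 h libraries enter both intervals. The change was less negative in the second interval for 13 genes (0.187%) and more negative for 0 by limma. Before adjustment, 190 of 6952 genes had a p below 0.05 in the more negative direction and 285 in the other. A share of about 0.05 of unchanged genes passes that threshold over both directions, so the 190 are not read as faster late loss. The median change was −0.49 in the first interval and −0.79 in the second. Rn45s changed by −6.30 and then by −0.84 (694 and 2104 units at 8 h). Sox2 had 28.6 and 68.7 units at 8 h, so that its 4 h and 8 h values overlapped. Fgf4 had 15.7 and 15.4 units at 8 h, again inside or near its 4 h range. Hes1, Socs3, Dyrk3, Trp53cor1, Lrrc75a, Mir292b, Hist1h1d, Hist1h2ab, Hist1h2bj and Hist1h4i were the others. Mir292b, Hes1, Socs3, Dyrk3 and Trp53cor1 had 13 or fewer reads at 4 h in all, where a further fall could not be detected at this depth. Their fitted log2 changes from 4 to 8 h were positive, at 1.27, 1.86, 0.87, 1.01 and 0.86 in that order. After TMM 39 genes were less negative and 0 more negative. Exosc9 had 444 and 417 units at 4 h and 64.3 and 79.1 at 8 h, with no overlap.

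**Figure D4:**
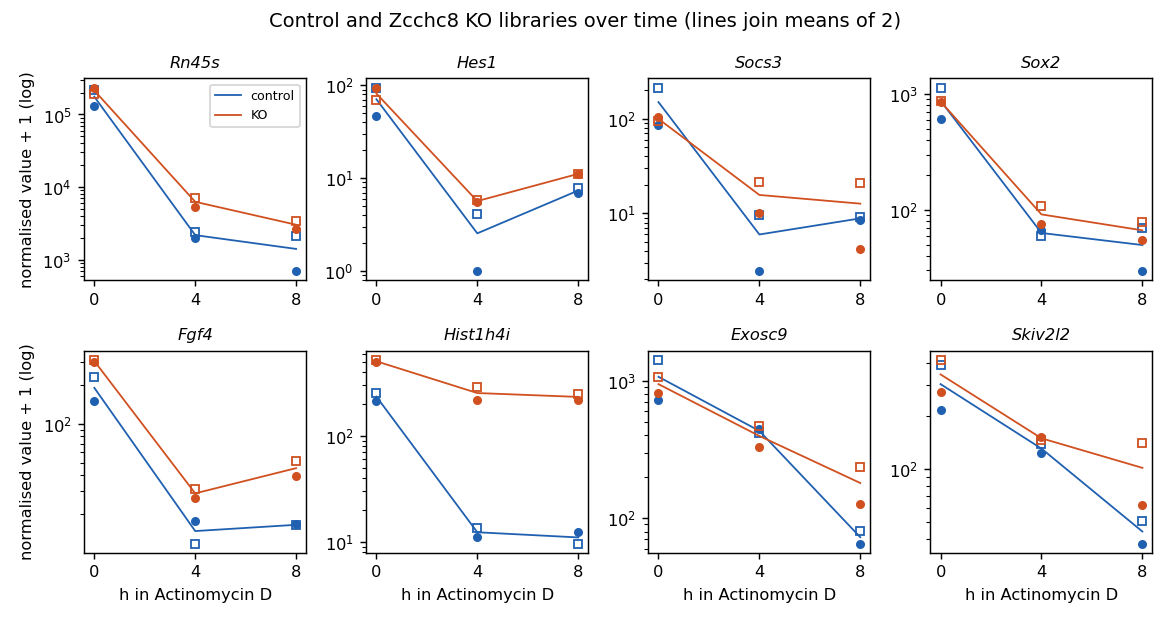
Normalised value plus 1 on a log axis at 0, 4 and 8 h in Actinomycin D for 8 genes in control (blue) and Zcchc8 KO (red) libraries; circles and squares are replicates 1 and 2 and lines join the means. Rn45s, Hes1, Socs3, Sox2 and Fgf4 are far lower at 4 h than at 0 h in control and differ less between 4 and 8 h, Exosc9 and Skiv2l2 are lower again at 8 h, and Hist1h4i drops in control to 10.2 and 12.4 units and stays above 200 in KO.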

How the data were processed

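The deposited values were a normalised signal. Per the values themselves, each was a whole number of reads on a RefSeq transcript, to within 0.001, scaled by a library-wide factor that the authors applied. TopHat2 2.1.1, HTSeq 0.6.0, DESeq2 and the mm9 build are listed in the submitters' processing notes; their roles and settings and the counted strand are not given in the sources used. Of 33896 rows, 978 repeats were dropped, and transcripts were summed by symbol to 23974 genes. Genes with a mean of at least 10 over 12 libraries (6952) were tested with limma 3.58.1 (R 4.3.3) on log2(value + 1), trend and robust, in 1 fit of 6 group means, two-sided, with Benjamini-Hochberg adjustment and calls under 0.05. The added 1 understates changes of low genes. Genes low at 4 and 8 h could pass the filter through their 0 h values. The fit was repeated after TMM scaling of the recovered reads (edgeR 4.0.16). DESeq2 1.42.0, edgeR, another pseudocount, other filters and left-out libraries were alternatives. The fit was tested on simulated data. Members and gene lists were chosen with earlier results of these data known. Genes named were the 15 largest falls and 10 largest rises on each scale (mean of at least 100, no overlap; failing that the 3 smallest p), the 10 highest at 0 h, and per list the 4 smallest p and the highest. Others named are values only or were chosen after their values were seen. Transcript features came from GENCODE M21 (99.2% of symbols matched) and miRNA sequences from RefSeq GRCm38.p6, another build than mm9, so no coordinates are given. The table held 0 spike-in rows.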

Additional observations from a re-analysis of the deposited data

Results flagged for a closer look

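Hist1h4i, a histone H4 gene, changed differently over the first 4 h in the 2 genotypes, by 3.248 on the log2 scale (KO minus control, limma adjusted p = 0.00542). Both KO libraries at 4 h (217 and 290 units) lay above both control libraries (10.2 and 12.4 units). At 0 h the values were 495 and 518 units in KO and 213 and 255 in control. The call was lost without any filter on low values and without control 4 h replicate 1, KO 0 h replicate 1, KO 0 h replicate 2 or KO 4 h replicate 2.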

How the results depend on the processing

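The 817 lower and 34 higher genes became 471 and 362 under TMM, 493 and 296 with edgeR and TMM, 540 and 289 with DESeq2, and 424 and 2 when the 4 libraries were fitted alone. Higher genes were 10 with edgeR on the deposited factors, 17 without a filter and 53 with a replicate block within genotype. Leaving out 1 of 12 libraries gave 234 to 2067 lower and 3 to 144 higher, and after TMM 179 to 650 lower and 31 to 550 higher. The difference between genotypes fell to 0 genes without a filter and ranged from 0 to 30 without 1 library. The 13 genes that differed between intervals became 39 under TMM, 39 with edgeR and TMM, 60 with DESeq2, 24 with a pseudocount of 5, 2 without a filter, 4 in the 6 control libraries alone, 35 with a replicate block, 30 with the block within genotype, and 2 to 123 without 1 library. Whether replicates with the same number in different groups belong together is not stated. Replicate differences at 0 and 4 h correlated at −0.0093 over genes. That value cannot exclude pairing, because it leaves out shifts shared by all genes and is weakened by counting error. The replicate block gave 1081 lower and 49 higher genes, and after TMM 476 and 383. Of 77 named genes called on the authors' scale, 39 kept the call under every alternative and 0 reversed; after TMM this was 40 of 95, with 0 reversed. Depth limits low rows: at 4 h 3 reads are worth 2.18 and 2.32 units. With 1 library left in a group, its spread is assumed to equal that of the others. Reads of the KO 8 h replicates, which enter the shared spread, disagreed most. Their chi-square per degree of freedom was 14.4, against 3.58 to 4.41 in the other groups.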
